A study of Mus musculus with 16 samples.

Results

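Eph receptors and ephrins are a family of receptors and ligands through which neighbouring cells signal to each other. The 10 genes described here, Epha1, Epha2, Epha4, Ephb2, Ephb3, Ephb4, Efna1, Efna4, Efnb1 and Efnb2, form a list of named genes among the 22375 genes of the count tables. The list was proposed with earlier results of these data known. Together they hold 6 of the 14 Eph receptors and 4 of the 8 ephrins in the tables. RNA was measured by RNA-Seq in mouse embryonic stem (ES) cells of strain 129/OLA, either wild type (WT, line E14Tg2a) or Cfp1-/-, in which Cxxc1, which encodes the CpG-binding protein Cfp1, is deleted on both alleles. Each line was left untreated or was treated with doxorubicin, a drug that damages DNA, for 6 hours. The treatment protocol gives the dose as 1 μM, whereas the treatment label of the treated samples gives 1 mM. All cells were grown on gelatin with serum and LIF and with no feeder cells named. The Cfp1-/- cells are a line made in earlier work. Each genotype was 1 line, so a difference of genotype and another difference between the lines cannot be told apart. Each of the 4 groups had 2 biological replicates sequenced in 2 technical runs each, and the runs were summed, so n = 2 in every group. The sources do not say that the replicates were separate cultures, so the p-values measure the spread between these samples, which may be technical.

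Eph receptors are receptor tyrosine kinases of the cell surface, and ephrins are their membrane-bound ligands, so that signalling needs contact between cells. A-type ephrins are held in the membrane by a lipid anchor and mainly bind A-type receptors, whereas B-type ephrins span the membrane and mainly bind B-type receptors, with Epha4 binding both types. Signals run forward into the receptor-bearing cell and in reverse into the ephrin-bearing cell, and they guide repulsion, sorting and boundary formation between cells, axon pathfinding and the shaping of blood vessels.

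Because Cfp1 binds unmethylated CpG dinucleotides, the promoters of 4 members that moved are shown with each CpG in capitals. The sequences are the 250 bases upstream of the RefSeq transcription start (from a table of the GRCm38.p6 build), written 5' to 3' on the strand of the gene, and each was found at exactly 1 place in the NCBIM37 build of the deposited tables. They belong to Efna1 (chr3:89084874-89085123, minus strand, 16 CpGs), Efnb2 (chr8:8661243-8661492, minus strand, 27 CpGs), Ephb2 (chr4:136391928-136392177, minus strand, 20 CpGs) and Ephb4 (chr5:137791087-137791336, plus strand, 12 CpGs).
Efna1: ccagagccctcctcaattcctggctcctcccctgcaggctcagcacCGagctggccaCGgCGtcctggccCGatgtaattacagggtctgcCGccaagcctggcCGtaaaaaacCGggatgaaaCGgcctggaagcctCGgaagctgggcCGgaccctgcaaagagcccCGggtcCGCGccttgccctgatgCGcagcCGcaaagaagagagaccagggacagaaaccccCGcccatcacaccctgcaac
Efnb2: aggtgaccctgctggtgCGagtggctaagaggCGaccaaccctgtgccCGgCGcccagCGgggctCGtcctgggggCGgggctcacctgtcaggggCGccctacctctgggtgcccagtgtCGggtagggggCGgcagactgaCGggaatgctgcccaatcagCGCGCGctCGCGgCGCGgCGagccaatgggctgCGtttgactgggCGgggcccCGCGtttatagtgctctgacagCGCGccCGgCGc
Ephb2: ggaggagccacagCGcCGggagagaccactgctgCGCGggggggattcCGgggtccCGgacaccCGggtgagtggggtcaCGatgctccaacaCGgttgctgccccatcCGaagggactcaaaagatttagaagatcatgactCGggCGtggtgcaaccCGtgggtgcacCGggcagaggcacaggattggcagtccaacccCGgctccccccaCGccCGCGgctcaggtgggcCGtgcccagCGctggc
Ephb4: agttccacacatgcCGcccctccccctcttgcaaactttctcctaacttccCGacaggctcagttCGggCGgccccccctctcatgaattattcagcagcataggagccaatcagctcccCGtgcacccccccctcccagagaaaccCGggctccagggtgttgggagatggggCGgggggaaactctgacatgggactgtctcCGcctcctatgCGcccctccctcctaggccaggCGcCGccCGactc
The RefSeq start of Efna1 lies 191 bases inside the gene as the deposited tables place it, while those of the other 3 lie at the 5' end of the gene or up to 24 bases before it. Over the full RefSeq window of 300 bases, which runs from 250 before to 50 after the start, the 10 members held 10 to 35 CpGs with a median of 15.5. The 32851 windows of all genes held a median of 7, with quartiles of 3 and 20, and 43.5% of them held at least 10. These windows were not limited to tested genes, and some genes gave more than 1. Each member gave 1 window, so the sets are not matched. Efna1 with 20 CpGs and Efnb2 with 35 stood at or above the upper quartile, as did Ephb2 with 24 and Ephb3 with 23. Epha4 with 17, Ephb4, Epha1 and Efnb1 with 14 each, Efna4 with 11 and Epha2 with 10 stood between the median and the upper quartile. A match to the p53 half-site, searched on both strands, was found in the Efna4 window alone among the 10, and 8.36% of all windows held one.

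The 8 summed libraries held 14880589 to 29422711 counts. Counts of Cxxc1 were 616 to 1412 in the WT libraries and 1 to 5 in the Cfp1-/- libraries. In the second run of replicate 1 of treated Cfp1-/- cells, 225 of the 280 X-linked genes with at least 200 counts in the first run had no counts, against 0 of 7744 genes on autosomes other than 19. Of the members only Efnb1 is X-linked, and its values are given with and without that run. The normalized count used below is the authors' summed count divided by a size factor from DESeq, and a level per kb is that count divided by the length of the gene's exons. Tests were made with edgeR's quasi-likelihood test over the 15758 genes with enough counts, with Benjamini-Hochberg adjustment over all of them, and a gene passed at an adjusted p under 0.05. All 10 members were tested, with between 10 and 5329 counts per library.

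In response to doxorubicin 5 of the 10 members passed in WT cells, where 48.3% of all tested genes passed, and 5 passed in Cfp1-/- cells, where 48.8% passed. In both lines Efna1, Efnb2 and Ephb2 rose and Ephb4 and Epha4 fell. With DESeq2 3 rose and 2 fell in WT cells, and 4 rose and 3 fell in Cfp1-/- cells. For all genes the shares that rose and fell were 26.5% and 21.8% in WT cells and 27.8% and 21.0% in Cfp1-/- cells, so the number of members that passed was near the background. Both responses are set against each other by the difference of the responses, for which 0.235% of all genes and 0 of the 10 members passed. At an unadjusted p under 0.05 the count of members was 1, Efnb2, and with DESeq2 it was 0. Between untreated lines 4 members, Ephb4, Efnb2, Epha1 and Epha2, were lower in Cfp1-/- cells and 0 were higher, against 16.1% and 17.9% of all genes and 34.0% in either direction. At an unadjusted p under 0.05, 1 member, Epha4, was higher and 6 were lower, and with DESeq2 0 were higher and 5 lower. Between treated lines Ephb4 alone passed, and it was lower in Cfp1-/- cells, against 25.9% of all genes in either direction and 10.8% lower. In a fit with the replicate number as a block, 4 members, Ephb4, Epha2, Efna1 and Efnb1, were lower there. With the study's own limits added, namely a 2.5-fold or greater change and no fewer than 200 normalized counts on average in the compared libraries, 1 member (Ephb4) was called in WT cells against 7.91% of all genes, 3 (Ephb4, Ephb2 and Efnb2) in Cfp1-/- cells against 7.61%, and 3 (Ephb4, Efnb2 and Epha1) between untreated lines against 3.33%. Between treated lines these limits left 0 members against 2.61% of all genes. Ephb4, 3.04-fold lower there, was kept out by its mean count alone. Efna1 was kept out of the calls in both responses by its mean count.

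**Figure D1:**
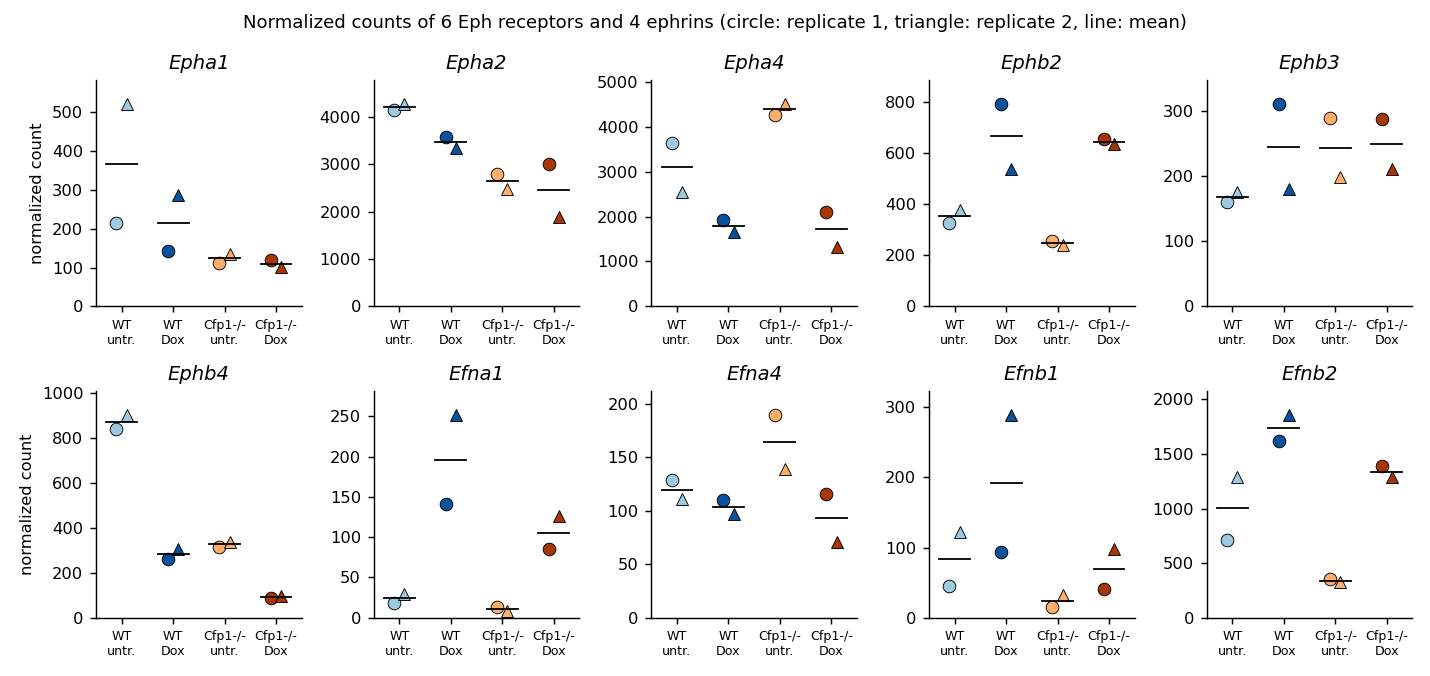
Normalized count of each of the 10 members (y axis, from 0) in the 2 biological replicates of each group (x axis), with circles for replicate 1, triangles for replicate 2 and a line at the mean. Both treated replicates of Efna1 and Ephb2 lie above both untreated ones in each line, both treated replicates of Ephb4 lie below, and the 2 replicates of Efnb1 and of Epha1 in WT cells lie far apart.

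Epha2, an A-type receptor of epithelial and early embryonic cells (chr4:140857155-140885299), was the member with the highest level per kb in WT cells. Its normalized counts were 4160.4 and 4278 in untreated and 3577 and 3359 in treated WT cells, and 2807 and 2476 in untreated and 3016 and 1891 in treated Cfp1-/- cells. The WT groups did not overlap, while the treated Cfp1-/- replicates lay on either side of the untreated ones. The log2 fold change with doxorubicin was -0.24 ± 0.20 (SE) in WT cells (edgeR adjusted p = 0.349) and -0.06 ± 0.20 in Cfp1-/- cells (edgeR adjusted p = 0.813), and neither passed. Between untreated lines Epha2 was lower in Cfp1-/- cells by a log2 fold change of -0.65 ± 0.20 (edgeR adjusted p = 0.0306). That call was lost when any 1 of the 4 untreated libraries was left out (adjusted p from 0.0774 to 0.15) and with total count scaling (log2 fold change -0.46, adjusted p = 0.0846). Between treated lines the log2 fold change was -0.47 ± 0.20 (edgeR adjusted p = 0.107), and it passed at -0.50 (adjusted p = 0.0264) once the replicate number entered the fit as a block. With single libraries left out, the difference between treated lines ranged from -0.87 to -0.17. The response in Cfp1-/- cells then ranged from -0.46 to 0.24.

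Epha4, an A-type receptor that binds ephrins of both types (chr1:77363760-77511663), fell with doxorubicin in both lines. Its normalized counts were 3647 and 2535 in untreated and 1933 and 1651 in treated WT cells, a log2 fold change of -0.74 ± 0.23 (edgeR adjusted p = 0.0246). In Cfp1-/- cells they were 4263 and 4504 without and 2109 and 1328 with the drug, a log2 fold change of -1.31 ± 0.23 (edgeR adjusted p = 0.00146). Treated and untreated replicates did not overlap in either line. The WT call was lost without replicate 1 of untreated WT cells (log2 fold change -0.45, adjusted p = 0.178), without replicate 2 of treated WT cells (-0.64, adjusted p = 0.111) and with total count scaling (-0.43, adjusted p = 0.146). Epha4 and Epha2 differed in their place in the untreated lines, since both Cfp1-/- replicates of Epha4 lay above both WT replicates. The log2 fold change of Epha4 there was 0.53 ± 0.23 (edgeR adjusted p = 0.102). It passed with the replicate block (0.57, edgeR adjusted p = 0.0128) and with total count scaling (0.72, edgeR adjusted p = 0.0324). With single libraries left out it ranged from 0.29 to 0.83. Treated lines had overlapping values, with a log2 fold change of -0.03 ± 0.23 (edgeR adjusted p = 0.931).

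Epha1, the A-type receptor first found in a liver-derived tumour line (chr6:42308486-42323267), was uneven between WT replicates. Its normalized counts were 214 and 521 in untreated and 143 and 287 in treated WT cells, and 111 and 136 in untreated and 118 and 102 in treated Cfp1-/- cells. In WT cells replicate 2 was the higher one with and without the drug, and the groups overlapped. The log2 fold change with doxorubicin was -0.72 ± 0.42 in WT cells (edgeR adjusted p = 0.19) and -0.12 ± 0.44 in Cfp1-/- cells (edgeR adjusted p = 0.838). In WT cells it was -1.22 without replicate 1 of untreated cells and 0.043 without replicate 2 of untreated cells. Both untreated WT replicates lay above both untreated Cfp1-/- replicates, with a log2 fold change of -1.54 ± 0.43 (edgeR adjusted p = 0.0218). Without replicate 2 of untreated WT cells this difference was -0.77 (adjusted p = 0.188), and it also lost its call without replicate 1 (adjusted p = 0.128) or replicate 2 (adjusted p = 0.0696) of untreated Cfp1-/- cells.

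Among the B-type receptors Ephb4 and Ephb2 moved in opposite directions with doxorubicin. Ephb4, the receptor of Efnb2 that marks veins in the developing vasculature (chr5:137791337-137819897), had normalized counts of 840.1 and 901 in untreated and 261 and 305 in treated WT cells. In Cfp1-/- cells the counts were 313 and 339 without and 85.8 and 97.4 with the drug. Its log2 fold change was -1.57 ± 0.18 in WT cells (2.98-fold lower, edgeR adjusted p = 9.9e-05) and -1.79 ± 0.19 in Cfp1-/- cells (3.45-fold lower, edgeR adjusted p = 6.71e-05). Untreated Cfp1-/- cells thus held Ephb4 just above the level of treated WT cells. The difference between lines was -1.39 ± 0.18 without the drug (edgeR adjusted p = 5.55e-04) and -1.60 ± 0.19 with it (edgeR adjusted p = 7.02e-04). Ephb4 was the 1 member that passed in all 4 of these comparisons, and it did so in every fit that left out a library. The 2 responses differed by -0.22 ± 0.25, with a 95% interval from -0.78 to 0.35 (edgeR adjusted p = 0.822).

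Ephb2, a B-type receptor known for axon guidance and for the sorting of cells in the intestinal crypt (chr4:136203454-136391903), had normalized counts of 327 and 378 in untreated and 791 and 539 in treated WT cells. Those of Cfp1-/- cells were 255 and 242 without and 654 and 634 with the drug. The groups did not overlap in either line. The log2 fold change was 0.96 ± 0.21 in WT cells (edgeR adjusted p = 0.00401) and 1.42 ± 0.21 in Cfp1-/- cells (edgeR adjusted p = 4.93e-04). Between lines it was -0.48 ± 0.21 without the drug (edgeR adjusted p = 0.105) and -0.02 ± 0.20 with it (edgeR adjusted p = 0.956). Ephb3, which acts beside Ephb2 in the crypt (chr16:21204828-21223378), had normalized counts of 161 and 176 in untreated and 310.5 and 179.6 in treated WT cells, and of 288 and 198 without and 287 and 210.2 with the drug in Cfp1-/- cells. Both treated WT replicates lay above both untreated ones, replicate 2 by a small margin, and the Cfp1-/- groups overlapped. Its log2 fold change was 0.58 ± 0.31 in WT cells (edgeR adjusted p = 0.152) and 0.07 ± 0.31 in Cfp1-/- cells (edgeR adjusted p = 0.86), and it passed in none of the 5 comparisons. With total count scaling its WT response passed at 0.90 (edgeR adjusted p = 0.0355), and with single libraries left out that response ranged from 0.14 to 0.92.

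The largest change among the members was that of Efna1, an A-type ephrin and ligand of Epha2 that was first isolated as a gene induced by an inflammatory cytokine in endothelial cells (chr3:89075655-89085064). Its normalized counts were 18.7 and 29.2 in untreated and 141 and 251 in treated WT cells. The Cfp1-/- libraries gave 13.9 and 8.45 without and 84.8 and 126 with the drug. All 4 treated libraries lay above all 4 untreated ones. The log2 fold change was 3.09 ± 0.42 in WT cells (8.53-fold, edgeR adjusted p = 3.05e-04) and 3.28 ± 0.46 in Cfp1-/- cells (9.68-fold, edgeR adjusted p = 3.62e-04). The responses differed by 0.18 ± 0.60 with a 95% interval from -1.16 to 1.52 (edgeR adjusted p = 0.948), an interval that holds differences of 2-fold in either direction. Between lines the log2 fold change was -1.06 ± 0.49 without the drug (edgeR adjusted p = 0.124) and -0.87 ± 0.38 with it (edgeR adjusted p = 0.115), and the second passed with the replicate block (-0.85, adjusted p = 0.041).

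Efna4, an A-type ephrin whose gene is close to Efna1 on the same strand (chr3:89137312-89141950), did not pass in any comparison. Normalized counts of Efna4 were 128 and 110.5 in untreated and 110.0 and 97.2 in treated WT cells, and 189 and 139 without and 115 and 70.4 with the drug in Cfp1-/- cells. The Cfp1-/- groups did not overlap, and the log2 fold change there was -0.78 ± 0.31 (edgeR adjusted p = 0.0615). It passed with the replicate block (-0.79, edgeR adjusted p = 0.0153) and with DESeq2 (-0.82, adjusted p = 0.0493). With single libraries left out it ranged from -1.20 to -0.46. In WT cells it was -0.16 ± 0.31 (edgeR adjusted p = 0.695). Between Efna1 and Efna4 lies a further A-type ephrin, Efna3, at 32.8 kb from Efna1 and 10.4 kb from Efna4. Efna3 rose in both lines, by a log2 fold change of 1.23 ± 0.30 in WT cells (edgeR adjusted p = 0.0077) and 0.82 ± 0.29 in Cfp1-/- cells (edgeR adjusted p = 0.0405). Of these 3 neighbours Efna1 and Efna3 thus passed upwards, and Efna4 had values in the other direction. The WT response of Efna3 did not pass without replicate 2 of treated WT cells (0.88, adjusted p = 0.0658), and its Cfp1-/- response did not pass with DESeq2 (0.77, adjusted p = 0.0652), nor without any 1 of the 4 Cfp1-/- libraries or either untreated WT library (adjusted p from 0.0537 to 0.191).

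Efnb2, the B-type ephrin that marks arteries and the main ligand of Ephb4 (chr8:8617434-8661239), was the most abundant ephrin of WT cells. Its normalized counts were 716 and 1284 in untreated and 1615 and 1853 in treated WT cells, a log2 fold change of 0.84 ± 0.24 (edgeR adjusted p = 0.0148). In Cfp1-/- cells they were 350.4 and 326 without and 1389.9 and 1287 with the drug, a log2 fold change of 2.03 ± 0.25 (4.07-fold, edgeR adjusted p = 1.59e-04). The groups did not overlap in either line. The WT call was lost without replicate 1 of untreated WT cells (log2 fold change 0.48, adjusted p = 0.0749) and without replicate 2 of treated WT cells (0.73, adjusted p = 0.0639). The responses differed by 1.18 ± 0.34 with a 95% interval from 0.43 to 1.94, and the adjusted p of 0.25 (edgeR) did not pass, nor did it with DESeq2 (adjusted p = 0.0591) or with the replicate block (adjusted p = 0.0713). Without replicate 2 of untreated WT cells the difference was 0.67.

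The untreated level of Efnb2 was lower in Cfp1-/- cells by a log2 fold change of -1.53 ± 0.24 (2.89-fold, edgeR adjusted p = 0.00166). With the drug the lines differed by -0.35 ± 0.23 (edgeR adjusted p = 0.299), and both treated Cfp1-/- replicates lay below both treated WT replicates. Efnb2 lies on chromosome 8, where 24.5% of 823 tested genes were lower in untreated Cfp1-/- cells, with a median of -0.23 on the log2 scale, against 15.6% of the 14935 genes elsewhere, with a median of 0.020. Within the first 20 Mb of the chromosome, which hold Efnb2, 16.5% of 85 genes were lower and the median was 0.076. The part of the chromosome in the result was not tested.

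Efnb1, a B-type ephrin whose loss in mice disturbs the sorting of cells in the skeleton and face (chrX:96331469-96344330), had biological replicates that lay far apart. Efnb1 had normalized counts of 45.9 and 122 in untreated and 94.3 and 288 in treated WT cells, and 14.8 and 33.0 without and 40.9 and 98.3 with the drug in Cfp1-/- cells. Replicate 2 was more than 2-fold higher than replicate 1 in every group with all runs included, and treated and untreated WT values overlapped. The 2 runs of replicate 1 of treated Cfp1-/- cells gave 40 and 0 counts, and without the affected run the treated Cfp1-/- values were 59.4 and 93.7. The log2 fold change was 1.25 ± 0.64 in WT cells (edgeR adjusted p = 0.134) and 1.57 ± 0.71 in Cfp1-/- cells (edgeR adjusted p = 0.0917), and without the affected run the second was 1.79 (adjusted p = 0.0482).

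Efnb1 was the member whose calls changed most once replicate numbers were fitted as blocks, a fit that takes same-numbered replicates as pairs. The response then passed in WT cells (1.20, adjusted p = 0.00171) and in Cfp1-/- cells (1.58, adjusted p = 7.8e-04). Between lines the log2 fold change was -1.76 ± 0.70 without the drug (edgeR adjusted p = 0.0793) and -1.44 ± 0.65 with it (edgeR adjusted p = 0.129). Both passed with the block (adjusted p = 5.74e-04 and 0.00178), and still did when the affected run was dropped as well (adjusted p = 8.9e-04 and 0.00947). Without the block, the log2 fold changes of Efnb1 moved with the library that was left out. They ranged from 0.22 to 2.10 for the WT response and from 0.81 to 2.25 for the Cfp1-/- response. Between lines they ranged from -2.44 to -0.90 without and from -2.20 to -0.42 with the drug. The block brought the count of members that rose to 4 in each line.

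**Figure D2:**
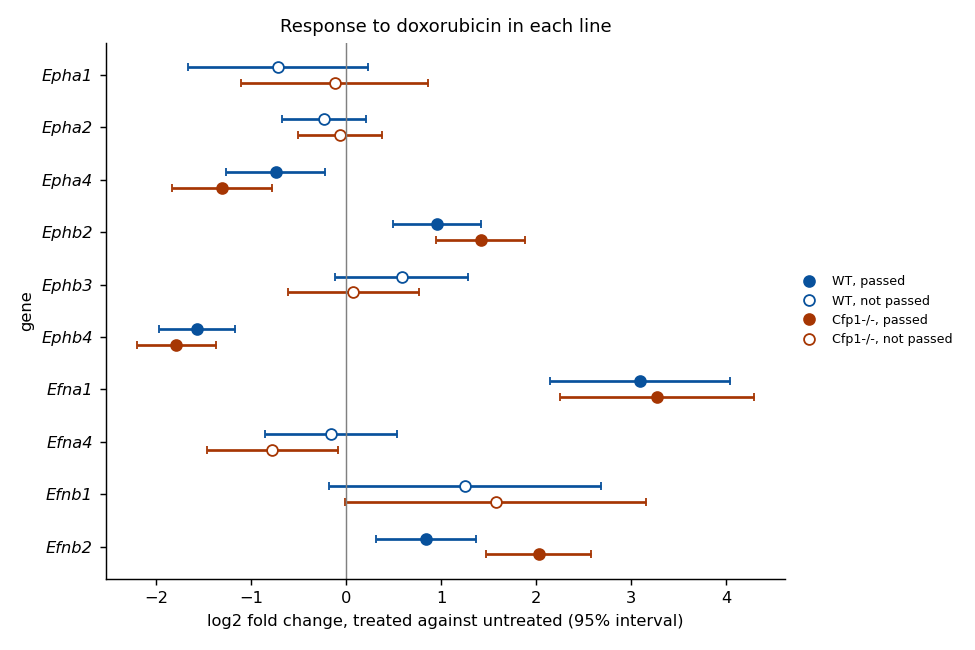
Log2 fold change of treated against untreated cells (x axis) for each member (y axis) in WT (blue) and Cfp1-/- cells (brown), from edgeR's fit with 95% intervals as bars, filled where the adjusted p was under 0.05. Efna1 stands furthest to the right and Ephb4 furthest to the left in both lines, and the intervals of Efnb2 in the 2 lines do not overlap although the test of their difference did not pass.

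**Figure D3:**
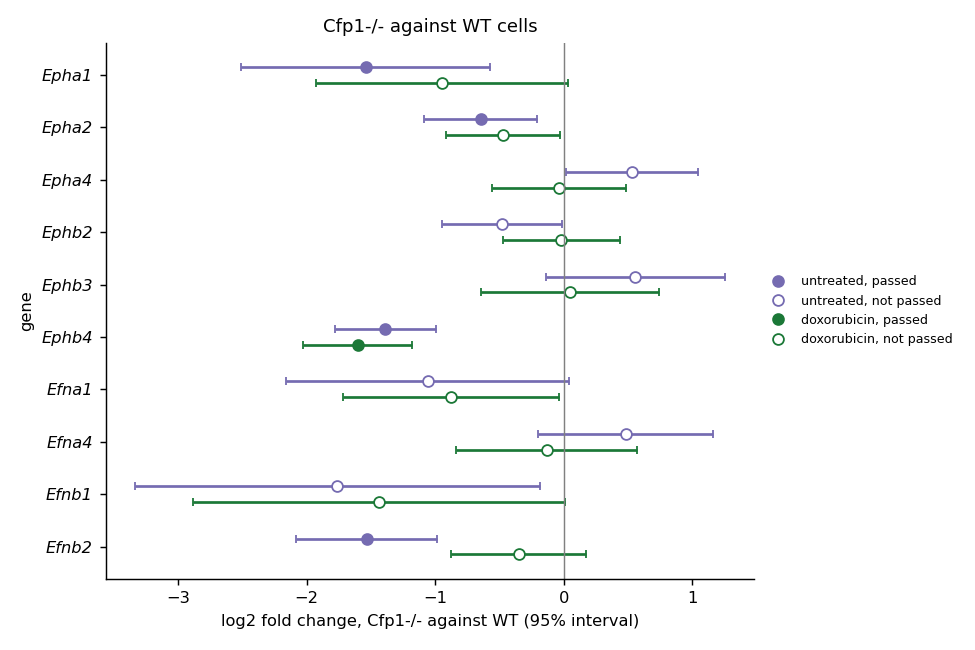
Log2 fold change of Cfp1-/- against WT cells (x axis) for each member (y axis), untreated (purple) and with doxorubicin (green), from edgeR's fit with 95% intervals as bars, filled where the adjusted p was under 0.05. Ephb4 lies near -1.39 and -1.60 in both states, whereas Efnb2 moves from -1.53 to -0.35.

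The same values were then set side by side as levels per kb of exon, which allows genes to be compared. In untreated WT cells the order began with Epha2 at 903 ± 17.8 normalized counts per kb (SD, n = 2) and Epha4 at 488 ± 124, followed by Efnb2 at 209 ± 83.9 and Ephb4 at 188 ± 9.24, which overlapped. Efna1 stood last of the 10 at 13.1 ± 4.06. In untreated Cfp1-/- cells Epha4 at 693 ± 26.9 stood above Epha2 at 565 ± 50.1, with no overlap of replicates, and Efna4 at 102 ± 22.3 stood above Efnb2 at 70.6 ± 3.58. With doxorubicin the first 3 places went to Epha2, Efnb2 and Epha4 in both lines, and in Cfp1-/- cells Efnb2 and Epha4 overlapped. Efna1 moved up to the fourth place in treated WT cells, at 107 ± 42.5, where it overlapped with Epha1.

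Summed over all 14 receptors the level was 1826 and 1806 per kb in untreated and 1421 and 1359 in treated WT cells. In Cfp1-/- cells it was 1490.5 and 1460.0 without and 1237 and 868 with the drug. The sum over all 8 ephrins was 331 and 472 in untreated and 678 and 832 in treated WT cells, and 284 and 244 without and 569 and 561 with the drug in Cfp1-/- cells. On this scale receptors were lower and ephrins higher in both treated libraries than in both untreated ones of each line. The ratio of ephrin to receptor transcripts was 0.181 and 0.262 in untreated and 0.477 and 0.612 in treated WT cells, and 0.190 and 0.167 without and 0.46 and 0.646 with the drug in Cfp1-/- cells. The receptor sums depended on the scaling. Per 1000000 counts of the library total they were 73.1 and 71.7 per kb in untreated and 72.9 and 69.4 in treated WT cells, which overlap, and 68.8 and 68.3 without and 67.8 and 48.8 with the drug in Cfp1-/- cells. The ephrin sums on that scale were higher in every treated library, going from 13.2 and 18.8 to 34.8 and 42.5 in WT cells and from 13.1 and 11.4 to 31.2 and 31.5 in Cfp1-/- cells. No test was made of these sums. Epha2 and Epha4 together made up 80.3% and 72.9% of the receptor sum in untreated WT cells and 85.5% and 85.0% in untreated Cfp1-/- cells. Efnb2 made up 45.2% and 56.8% of the ephrin sum in untreated WT cells but 25.8% and 27.9% in untreated Cfp1-/- cells, where Efna4 held 41.7% and 35.5%. The 10 members accounted for 92.4% to 93.5% of the whole family in the untreated libraries and 81.3% to 85.9% in the treated ones.

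**Figure D4:**
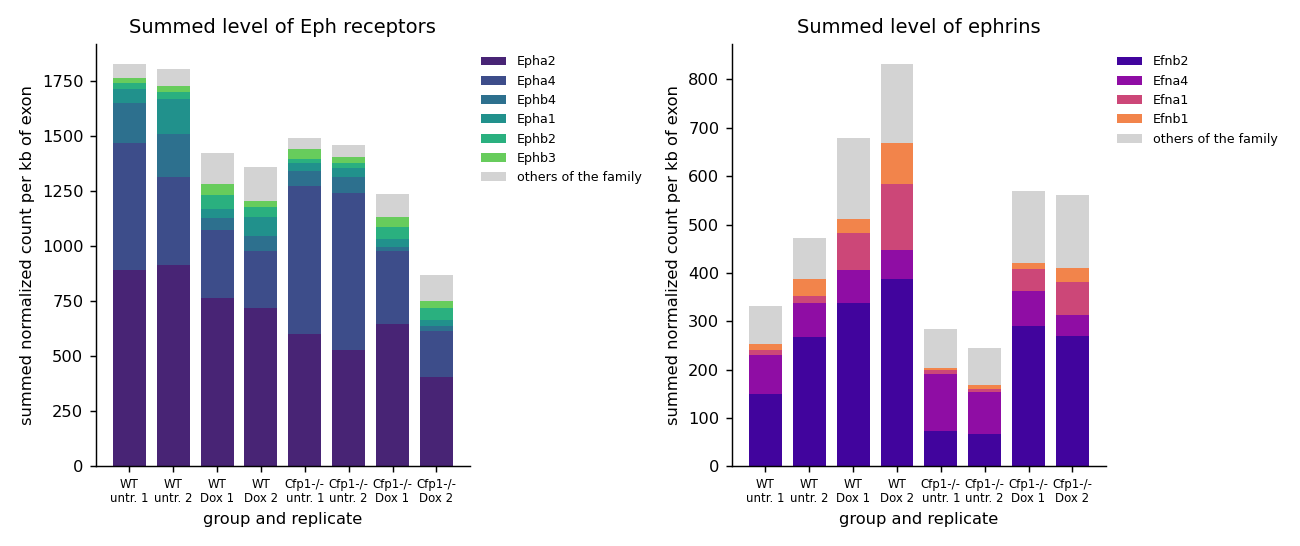
Summed level of all Eph receptors (left) and all ephrins (right) in normalized counts per kb of exon (y axis) in each library (x axis), stacked by gene, with the family genes that are not members in grey. The ephrin sum is higher in both treated libraries of each line, the receptor sum is lower on this scale but overlaps in WT cells with total count scaling, and the share of Efnb2 in the ephrin sum is smallest in the 2 untreated Cfp1-/- libraries.

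The grey share came from the 12 other genes of the family, of which 10 were tested and Epha3 and Epha6, with at most 9 counts per library, were not. In WT cells 5 of the 10 rose and 0 fell, against 26.5% and 21.8% of all genes. DESeq2 also gave 5 and 0, and 0 fell at an unadjusted p under 0.05. Epha10, an A-type receptor whose kinase domain lacks residues needed for activity, had normalized counts of 24.6 and 18.8 in untreated and 269 and 226 in treated WT cells, and of 22.2 and 22.8 without and 149 and 149 with the drug in Cfp1-/- cells. Its log2 fold change was 3.54 ± 0.29 in WT cells (edgeR adjusted p = 1.74e-05) and 2.76 ± 0.28 in Cfp1-/- cells (edgeR adjusted p = 6.14e-05). Efnb3, a B-type ephrin of the midline of the nervous system, went from 51.0 and 32.3 to 262 and 133 in WT cells, a log2 fold change of 2.27 ± 0.37 (edgeR adjusted p = 8.69e-04). Ephb6, a receptor without kinase activity, rose by 1.74 ± 0.28 (edgeR adjusted p = 7.08e-04) and Epha8, which lies 93.4 kb from Ephb2, by 1.33 ± 0.35 (edgeR adjusted p = 0.0107) in WT cells, beside Efna3 above. Epha5, Epha7, Ephb1, Efna2 and Efna5 did not pass there, with log2 fold changes from -0.019 for Epha7 to 0.85 for Ephb1.

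In Cfp1-/- cells 6 of these 10 rose and 0 fell, against 27.8% and 21.0% of all genes. DESeq2 gave 5 and 0, and 0 fell at an unadjusted p under 0.05. Those that rose with edgeR were Epha10 and Efna3 above, Epha8 (2.18 ± 0.38, edgeR adjusted p = 0.00134), Ephb1 (2.07 ± 0.43, edgeR adjusted p = 0.00347), Efnb3 (1.37 ± 0.35, edgeR adjusted p = 0.00976) and Epha7 (0.85 ± 0.22, edgeR adjusted p = 0.00954). Ephb6 had a log2 fold change of 0.71 ± 0.27 (edgeR adjusted p = 0.0518) and passed with the replicate block (adjusted p = 0.0281). The 3 that did not pass and are not yet named here for this line, Efna2, Efna5 and Epha5, had log2 fold changes of 0.61, 0.76 and 0.0058. No gene of the 10 passed for the difference of the responses with edgeR or DESeq2, and 2, Epha7 and Ephb6, had an unadjusted p under 0.05. Over the 20 tested genes of the whole family the median response on the log2 scale was 0.71 (WT) and 0.79 (Cfp1-/-), against 0.057 and 0.014 over all tested genes. The 10 members alone had medians of 0.21 and 0.0058, and the 10 other genes had medians of 1.04 and 0.83. The 5 that rose in WT cells were weakly expressed before treatment, with 18.8 to 59.4 normalized counts in untreated WT cells.

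Between untreated lines Epha8 (-1.58 ± 0.39, edgeR adjusted p = 0.0123), Efna2 (-1.21 ± 0.31, edgeR adjusted p = 0.0146) and Epha7 (-0.77 ± 0.22, edgeR adjusted p = 0.0217) were lower in Cfp1-/- cells and 0 of the 10 were higher. At an unadjusted p under 0.05, 1 was higher, Efnb3 (0.94 ± 0.37, edgeR adjusted p = 0.0781), which passed with the replicate block (0.97, adjusted p = 0.0239), and with DESeq2 the count was 0. With the members, 7 of the 20 tested family genes were thus lower in untreated Cfp1-/- cells, against 16.1% of all genes, and the 20 had a median of -0.57 on the log2 scale against 0.0059 over all genes. Between treated lines 0 of the 10 passed with edgeR or DESeq2, and 2, Efna2 (-0.91 ± 0.30) and Epha10 (-0.70 ± 0.25), had an unadjusted p under 0.05 and passed with the replicate block (adjusted p = 0.028 and 0.0345). The calls of Epha8, Efna2 and Epha7 between untreated lines each depended on single libraries. Without replicate 2 of untreated WT cells or replicate 1 of untreated Cfp1-/- cells none of the 3 passed (adjusted p from 0.0577 to 0.128), and Epha7 was also lost without replicate 2 of untreated Cfp1-/- cells (adjusted p = 0.0963). Among the responses, Epha8 in WT cells did not pass without replicate 1 of untreated or replicate 2 of treated WT cells (adjusted p = 0.0724 and 0.055), and Epha7 and Efnb3 in Cfp1-/- cells did not pass without replicate 2 of either Cfp1-/- group (adjusted p from 0.0511 to 0.0658).

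The genes that act with Eph receptors inside the cell moved in both directions. Of 52 such genes, all tested, 13 rose and 14 fell in WT cells, where the list had a median of -0.029 on the log2 scale, and 14 rose and 9 fell in Cfp1-/- cells, where it was 0.042. Of all genes 26.5% rose and 21.8% fell in WT cells and 27.8% and 21.0% in Cfp1-/- cells, so these counts were near the background. The highest log2 fold changes in WT cells among those that passed were those of Anks1b at 3.62 ± 0.21 (edgeR adjusted p = 3.79e-06), Rgs3 at 3.39 ± 0.25 (edgeR adjusted p = 1.1e-05) and Ngef at 2.29 ± 0.30 (edgeR adjusted p = 2.27e-04). Anks1b encodes a relative of the Eph-binding adaptor Anks1, Rgs3 a protein that acts in reverse signalling through B-type ephrins, and Ngef the protein ephexin that couples Epha4 to the cytoskeleton. Grb7 at -2.15 ± 0.21 (edgeR adjusted p = 4.21e-05), Arhgef26 at -1.28 ± 0.30 (edgeR adjusted p = 0.00666) and Yes1 at -0.996 ± 0.15 (edgeR adjusted p = 4.68e-04) were the furthest in the other direction. Grb7 is an adaptor of receptor tyrosine kinases and Yes1 a kinase of the Src family. By role, 4 of the 7 Src and Abl kinases and focal adhesion genes fell in WT cells and 1 of them in Cfp1-/- cells, while 3 of the 7 genes of reverse signalling through B-type ephrins rose in each line. These differences between roles and lines were not tested. For the difference of the responses 0 of the 52 passed, with edgeR and with DESeq2, and 4 had an unadjusted p under 0.05.

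Between untreated lines 7 of the 52 were higher and 10 lower in Cfp1-/- cells, near the background of 17.9% and 16.1% of all genes. Kalrn, which acts below B-type receptors, was highest at 1.73 ± 0.17 (edgeR adjusted p = 1.54e-04), with normalized counts of 302 and 377 in WT and 1073 and 1134 in Cfp1-/- cells. It was followed by Rgs3 at 1.04 ± 0.25 (edgeR adjusted p = 0.0112) and the phosphatase gene Acp1 at 0.88 ± 0.15 (edgeR adjusted p = 0.00267). The adaptor Grb10, an imprinted gene, was lowest at -2.14 ± 0.20 (edgeR adjusted p = 1.36e-04), with 6048 and 8658 in WT and 1529 and 1732 in Cfp1-/- cells. Bcar1, a docking protein of focal adhesions, followed at -0.94 ± 0.16 (edgeR adjusted p = 0.002) and the adaptor Shc1 at -0.73 ± 0.24 (edgeR adjusted p = 0.0383). Between treated lines 7 were higher and 5 lower, against 15.1% and 10.8% of all genes.

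These are bulk samples, in which fewer cells of a type and less RNA per cell cannot be told apart. The 9 ES cell markers were present in every library and summed to 69413 to 94513 normalized counts in untreated and 26901 to 36293 in treated WT cells, and to 74904 to 75872 and 25330.3 to 33406 in Cfp1-/- cells. In each line 8 of the 9 fell with the drug. Markers of primed epiblast and neural cells summed to 4494 and 5964 in untreated and 1324 and 3552 in treated WT cells, and to 1433 and 2526 without and 799 and 795 with the drug in Cfp1-/- cells. Their genes did not all move as the sum did. Pou3f1 had no counts in any WT library and 84.4 to 262 normalized counts in the Cfp1-/- libraries, and Nes, at 1081 and 3318, made up most of the sum in treated WT cells, after 1026 and 3036 without the drug. Fibroblast markers summed to 205 to 237 in untreated WT cells, 60.8 to 62.1 in untreated Cfp1-/- cells and 298 to 512 in treated cells of both lines. Col1a1 was the most abundant of them in treated cells, while Lum had at most 2 counts in any library. In WT cells Col1a1 and Thy1 rose with the drug. Both treated WT replicates of Col1a2 and of Col3a1 lay below both untreated ones. The log2 fold changes there were -0.32 for Col1a2 (edgeR adjusted p = 0.515) and -0.81 for Col3a1 (edgeR adjusted p = 0.146), and neither passed. Primitive endoderm markers summed to 194 and 255 in untreated and 376 and 361 in treated WT cells, and to 536 and 365 without and 685 and 567 with the drug in Cfp1-/- cells. Pdgfra made up most of the sum in treated cells of both lines. It went from 22.9 and 32.3 to 238 and 193 in WT cells and from 125 and 183 to 451 and 446 in Cfp1-/- cells. The means of Dab2 and Sox7 were lower in treated cells of both lines, and those of the weakly counted Gata4, Gata6 and Sox17 were higher. Mesoderm markers summed to 342 and 458 in untreated and 160 and 199 in treated WT cells, and to 575 and 288 without and 231 and 197 with the drug in Cfp1-/- cells, with Mesp1 at no more than 1 count in any untreated library. Not all of these genes moved as the sum did. Of the 5, 2 rose (Mesp1 and Mixl1) and 2 fell in WT cells, and 1 rose (Mesp1) and 2 fell in Cfp1-/- cells. The part of all these markers in the changes of the Eph and ephrin genes was not tested.

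Over the 8 libraries the log2 level of Efna1 followed that of Ephb2 (Pearson's r = 0.91) and Efnb2 (r = 0.91) and ran opposite to that of Epha4 (r = -0.94). Outside the family the genes whose log2 level was most like that of the 3 most abundant members were Rps4y2 and Gm3591 for Epha2 (r = 0.97 for both), Rdh13 (r = 0.98) and Bcl2l12 (r = 0.97) for Epha4, and Casp6 and Zfp238 for Efnb2 (r = 0.99 for both). These values rest on 8 libraries in 4 groups that share line, treatment and replicate number, and they are descriptions of likeness alone.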

How the data were processed

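Libraries that keep the strand were prepared from rRNA-depleted RNA of 8 biological replicates, and 16 technical runs were sequenced. The authors aligned the reads to NCBIm37 with STAR (version 2.2.1 in the submitters' processing notes) and counted them over exons of Ensembl genes on the sense strand with HTSeq. They deposited raw counts per run and normalized counts per biological replicate, a signal in which the counts of both runs were added and scaled by size factors from DESeq. Union mode, which the authors used, leaves out reads on overlapping genes. Runs were summed here, samples were grouped by their own labels, and symbols and exon lengths were taken by identifier from GENCODE vM1 for 22324 of the 22375 genes. For the symbol Efna5, which 2 identifiers carry, the one with the longer exon length was used.

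Counts were fitted with edgeR 4.0.16 in R 4.3.3 (filterByExpr, TMM, glmQLFit with a coefficient per group over all 4 groups, then glmQLFTest) with Benjamini-Hochberg adjustment, and each SE was computed as the log2 fold change over the square root of F. The study's own limits, 2.5-fold change and 200 normalized counts on average beside the adjusted p, were kept as a second call. Deviations of same-numbered replicates from their group means correlated by 0.168 to 0.614 across 10297 genes between the 6 group pairs. With 2 replicates per group the deviation of one is the reverse of the other, so these correlations cannot decide whether the numbers pair the samples. The sources do not say what same-numbered replicates share. The reported fit is without a block, and the fit with it is an alternative, given beside each member call that it changes. In 6 of 8 pairs of runs the chi-square per degree of freedom was 0.998 to 1.05, and it was 9.61 and 42.9 in replicate 1 of treated WT and treated Cfp1-/- cells.

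The alternatives were DESeq2 size factors, DESeq2 1.42.0, total count scaling, no filter, the replicate block, the affected run left out, first runs alone, no division by exon length and each replicate left out. The block together with the affected run left out was added after seeing the data. Values were named for all 10 members, all tested family genes, the 3 furthest genes per direction of a list of 52 pathway genes and the 2 genes most like the 3 most abundant members. Members and lists were chosen with earlier results of these data known. Scripts were tested on simulated counts.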

Additional observations from a re-analysis of the deposited data

How the results depend on the processing

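Efna1, Ephb2 and Ephb4 kept their direction and their calls in both responses under all alternatives, and Efnb2 and Epha4 did so in Cfp1-/- cells. Of 400 values of the 10 members in 8 alternatives without a left-out replicate, 361 kept their direction and their side of the threshold, 2 lost and 30 gained a call and 7 turned their direction, and of 400 with a replicate left out the numbers were 354, 11, 12 and 23. The cause was not tested.

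With total count scaling all genes together had a median response of 0.37 on the log2 scale in WT and 0.23 in Cfp1-/- cells, and to 0.20 and 0.11 between untreated and treated lines. With it 4 members rose and 1 fell in WT cells, and 1 was higher and 3 were lower in untreated Cfp1-/- cells. It turned log2 fold changes that had not passed for Epha2 (0.078), Efna4 (0.15) and Epha7 (0.30) in WT cells, for Epha1 (0.089) and Epha2 (0.15) in Cfp1-/- cells, and for Epha4 (0.053) and Ephb2 (0.072) between treated lines. With first runs alone Epha4 between treated lines was 0.0032 and Epha10 between untreated lines -0.019, and without the affected run Efnb3 between treated lines was -0.061. The Cfp1-/- response of Epha5 was -0.033 with DESeq2 size factors, -0.034 with DESeq2, -0.0046 without a filter, -0.065 without the affected run and -0.079 without it and with the block. Without a filter 2 members were lower between treated lines. Without division by exon length Efnb2 made up 68.7% of the ephrins of untreated WT cells.

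With the replicate block 1 member was higher in untreated Cfp1-/- cells and 4 were lower between treated lines, also without the affected run, and apart from the calls given with the results the block changed no call of the members. For the difference of the responses the block gave 243 genes, also without the affected run 352, DESeq2 216 and no filter 133, against 37.

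With each replicate left out in turn, 1 to 2 members fell in WT and 2 to 4 in Cfp1-/- cells, 0 to 1 were higher and 2 to 5 lower between untreated lines, and 1 to 2 were lower between treated lines. Log2 fold changes whose direction turned ranged in WT cells from -1.32 to 0.043 for Epha1, -0.30 to 0.20 for Epha7 and -0.42 to 1.61 for Efna5. In Cfp1-/- cells they ranged from -0.27 to 0.015 for Epha1, -0.46 to 0.24 for Epha2, -0.19 to 0.36 for Ephb3 and -0.75 to 0.51 for Epha5. The difference of the responses ranged from -0.22 to 1.19 for Epha1, -0.22 to 0.48 for Epha2, -0.19 to 0.66 for Efna1, -0.57 to 1.34 for Efnb1, -1.23 to 0.021 for Epha5 and -0.89 to 1.13 for Efna5. Between untreated lines the range was -0.60 to 0.18 for Epha5, -0.10 to 0.30 for Epha10 and -1.63 to 0.40 for Efna5. Between treated lines it was -0.42 to 0.27 for Epha4, -0.28 to 0.28 for Ephb2, -0.30 to 0.49 for Ephb3, -0.55 to 0.19 for Efna4, -0.14 to 0.37 for Epha7, -0.049 to 0.57 for Efna3 and -0.38 to 0.60 for Efnb3.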
